A study of Mus musculus with 9 samples.

Results

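Expression of 10 genes of the actin cytoskeleton and of SRF and YAP signalling (Palld, Ccn1, Ccn2, Ankrd1, Tagln, Acta2, Myl9, Tpm1, Vcl and Srf) was followed in RNA-seq of mouse retinal explants. They were matched by symbol to the 55487 genes of the deposited count table, and all 10 passed the filter on low counts that kept 21049 genes. The set was put together with the difference between 2-DG and control in these same libraries known, so that difference is given here as a description. Where members past a threshold are counted, the share of all genes past it stands beside the count, and the count supports nothing about the members. Ccn1 and Ccn2 are the genes formerly called Cyr61 and Ctgf.

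Retinas for the 9 libraries were taken on postnatal day 28 from C57BL/6J mice of wild-type genotype, freed of sclera and pigment epithelium, and kept for 48 h in Neurobasal-A medium with 5 mM glucose. The 5 control libraries were cultured in this medium alone and the 4 2-DG libraries with 2-deoxy-D-glucose (2-DG) at 20 mM, a glucose analog that blocks glycolysis. The protocol goes on with a rinse and 1 h in Krebs' Ringer medium, and it is not clear whether retinas for RNA, which were processed at once, went through that hour. The labels place every library in batch 1. The protocol text attached to every sample, controls included, names 2-DG, so the assignment rests on the titles and the treatment label.

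Library totals ranged from 11317734 (2-DG replicate 1) to 51802249 (2-DG replicate 3) estimated counts. Levels are in CPM, counts scaled to a common library total, on a size adjusted between libraries by the TMM method, and a log2 fold change is that of 2-DG against control fitted by edgeR, with its standard error (SE). Control replicate 2 stood apart. Its summed level of 9 rod photoreceptor markers, led by Gnat1 and Sag, was 24066 CPM, against 2569 to 10609.5 CPM in the other 8 libraries (exact permutation p = 0.770 between the groups), and the fold changes of the 10 genes are also given without it. In bulk RNA, fewer cells of a type and less RNA per cell cannot be told apart.

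SRF is a transcription factor that binds the CArG box. It works with MRTF cofactors, which are held in the cytoplasm by monomeric actin and released when actin polymerizes, and with ternary complex factors, which respond to growth factor and MAP kinase signalling. YAP and TAZ are coactivators that bind TEAD factors at the sequence GGAATG and are restrained by the Hippo kinases. Both routes respond to cell shape and tension, and many of their targets encode actin-binding, contractile and matricellular proteins. In the retina such genes are known mainly from pericytes, vascular smooth muscle and reactive glia.

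RefSeq (GRCm38.p6) gave promoter windows of 250 bases before to 50 bases after a start site for 8 members, and none for Ccn2 and Tagln. A CArG box (searched on both strands by the consensus of that name) was in 3 of the 10 windows of these 8 genes, those of Srf, Vcl and Myl9, against 535 of 32851 windows of all genes, or 1.63%. The letters GGAATG on either strand (CATTCC when read on the other strand) were in 6 of the 10, in 1 of 3 windows of Palld and in those of Ccn1, Ankrd1, Acta2, Tpm1 and Vcl, against 4817 windows of all genes, or 14.7%. No match overlapped a match of the other motif. The Acta2 window was placed by a RefSeq start site at chr19:34255373. Acta2-201, which held 89.0% of the Acta2 counts, starts further upstream in GENCODE, at chr19:34255590. The GGAATG match of Acta2 thus lies past that start, and most of the sequence before that start was not searched. A match says only that the letters are there, and these data hold no measure of binding. Stretches from 5 of these genes, chosen to show the CArG boxes and the matches in the YAP targets Ccn1 and Ankrd1, are printed with the matched letters in capitals. The other matches, in Tpm1, Acta2 and the second Palld window, are not shown. The first 3 hold CArG boxes, and the Vcl stretch holds GGAATG as well. Ankrd1-205, the transcript with 59.5% of the Ankrd1 counts, starts at chr19:36120099 in GENCODE, so both Ankrd1 matches lie past that start. The last is the stretch just before the RefSeq start site closest to the Palld transcript that held most of its counts, and it has neither motif.
Srf, chr17:46556193-46556262, minus strand: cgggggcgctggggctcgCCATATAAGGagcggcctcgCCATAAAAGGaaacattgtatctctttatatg
Vcl, chr14:20929158-20929268, plus strand: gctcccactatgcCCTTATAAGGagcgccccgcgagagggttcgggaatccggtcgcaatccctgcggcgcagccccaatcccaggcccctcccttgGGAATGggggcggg
Myl9, chr2:156775284-156775334, plus strand: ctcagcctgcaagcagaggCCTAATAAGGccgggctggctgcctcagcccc
Ccn1, chr3:145650056-145650105, minus strand: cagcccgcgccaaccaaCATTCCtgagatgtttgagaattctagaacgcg
Ankrd1, chr19:36119945-36120064, minus strand: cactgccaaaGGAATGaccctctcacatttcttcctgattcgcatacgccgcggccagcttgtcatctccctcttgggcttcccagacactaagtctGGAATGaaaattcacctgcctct
Palld, chr8:61591140-61591239, minus strand: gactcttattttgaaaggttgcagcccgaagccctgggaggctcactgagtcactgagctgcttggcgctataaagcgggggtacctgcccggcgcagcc
In the Srf stretch the boxes began 82 and 62 bases before the start site. In Vcl the box began 227 bases before it, in Myl9 161 bases, and the Ccn1 match lay 103 bases before the start site.

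Of the 10 genes, 9 had a lower fitted level in 2-DG explants than in controls, with a median log2 fold change of -0.76, while over all genes tested 50.8% were lower and the median was -0.01. No member passed an adjusted p of 0.05 with edgeR's quasi-likelihood test, nor did any of the 21049 genes (0%), of which 1526 had an unadjusted p under 0.05. DESeq2's Wald test called 284 genes (1.35%), with 1 member among them (Palld), and limma-voom with sample weights called 1222 (5.81%), with 3 members among them (Palld, Tagln and Myl9). Without control replicate 2, edgeR called 16 genes (0.0775%), Palld among them. At an unadjusted p under 0.05, 3 members were lower (Palld, Ccn1 and Srf), where the share of all genes lower at that level was 4.83% (7.25% in either direction). That count was between 1 and 5 with 1 library left out, and neither Ccn1 nor Srf was in it without control replicate 3, 4 or 5 or 2-DG replicate 3 or 4. The groups did not overlap for Palld alone, and 1.41% of all genes were lower with groups that did not overlap (2.93% in either direction). Because the set was chosen on this contrast, these counts say nothing more than how it was chosen.

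Palld (ENSMUSG00000058056, chr8:61511433-61902690, minus strand) encodes palladin, a scaffold that cross-links actin and sits in stress fibres and focal adhesions. Its level in control replicates 1 to 5 was 48.6, 25.4, 45.3, 62.6 and 69.1 CPM, and in 2-DG replicates 1 to 4 it was 13.7, 15.7, 19.8 and 17.7 CPM. Every 2-DG library was below every control library, and control replicate 2 lay nearest to them. The means were 50.2 ± 17.0 (SD, n = 5) and 16.7 ± 2.64 CPM (SD, n = 4). Palld was 3.00-fold lower, at -1.59 on the log2 scale (SE 0.30). It was -1.75 without control replicate 2, and between that and -1.45 with any 1 library left out, so Palld was the member with the narrowest such range relative to its size.

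**Figure D1:**
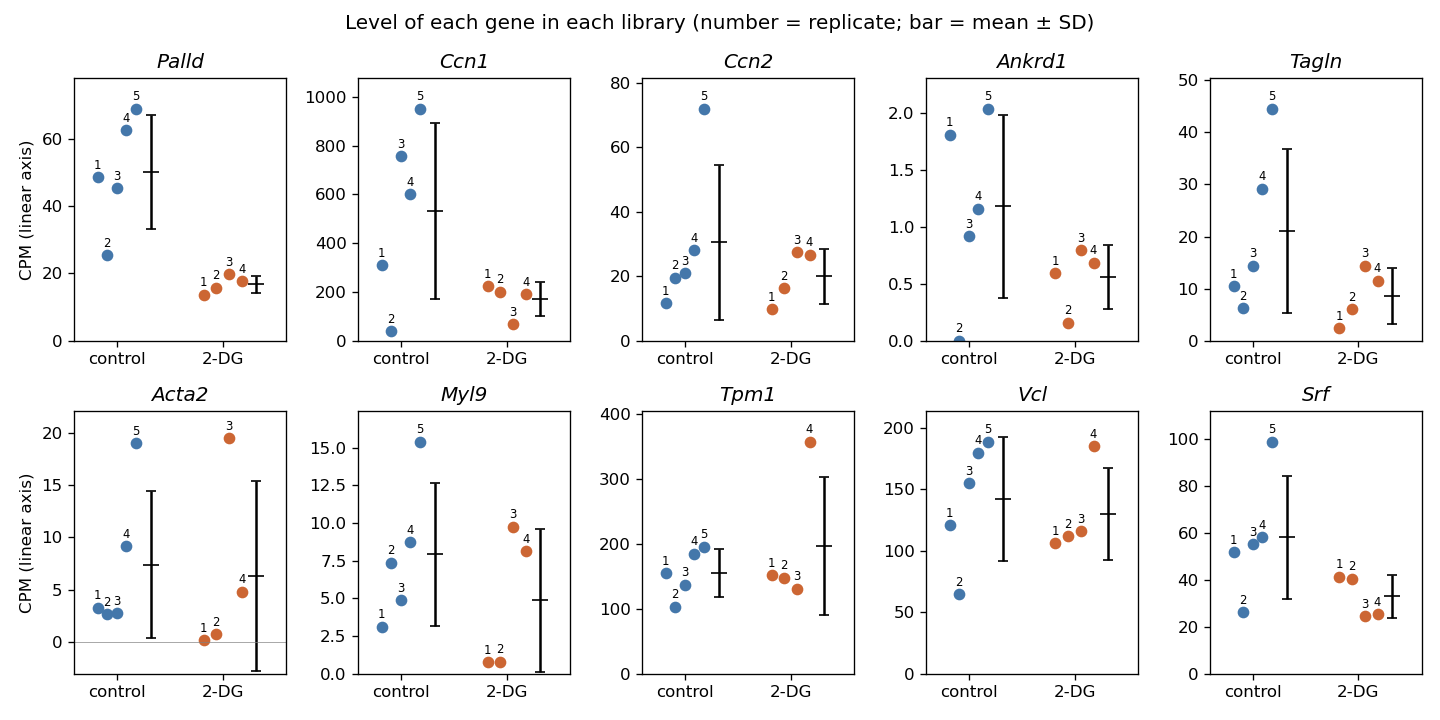
Level of each of the 10 genes in CPM (linear axis, 1 panel per gene with its own scale) in 5 control and 4 2-DG libraries; points are libraries numbered by replicate, and the bar is the mean ± SD. Palld is the panel in which all 2-DG points (13.7 to 19.8 CPM) lie below all control points (25.4 to 69.1 CPM), while a lone 2-DG library lies above all others for Acta2 (replicate 3) and Tpm1 (replicate 4).

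The transcript table placed the Palld counts mostly in 1 transcript. Palld-202 (4193 nucleotides), which starts at chr8:61591142 in GENCODE, close to the RefSeq start site at chr8:61591139 whose upstream stretch is printed above, held 81.5 to 93.0% of the gene's estimated counts in control libraries and 76.9 to 94.9% in 2-DG libraries. These ranges overlapped widely. Palld-203, which starts further upstream, held 1.53 to 8.46% in controls and 0 to 15.1% in 2-DG. In CPM of the transcript table, Palld-202 had 43.8 ± 17.9 in controls and 14.4 ± 2.75 in 2-DG, whereas Palld-203 had 2.49 ± 2.22 and 1.81 ± 1.27. The difference of the gene thus lay in Palld-202, while that of Palld-203 was smaller than the spread between libraries. The division of reads between transcripts is itself an estimate, and its uncertainty is not part of the deposited values.

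**Figure D2:**
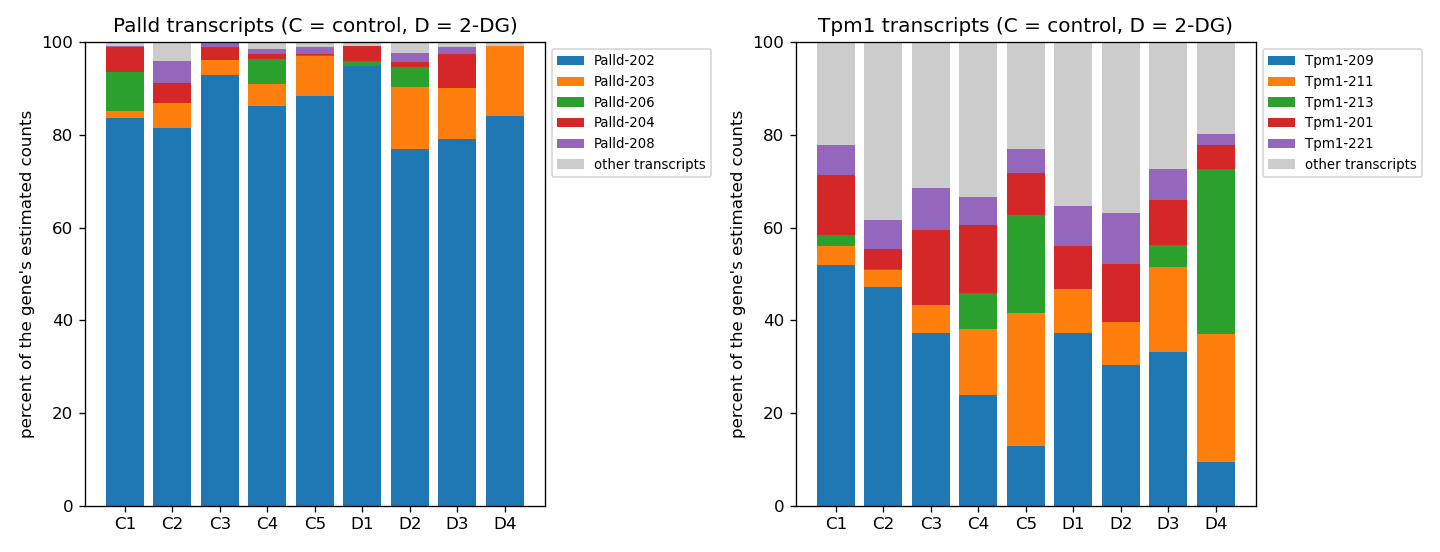
Percent of the estimated counts of Palld and of Tpm1 assigned to their 5 most abundant transcripts, as stacked bars for control (C) and 2-DG (D) libraries. Palld-202 holds 76.9 to 94.9% of Palld in all 9 libraries, whereas the shares of Tpm1-209 (9.33 to 52.0%) and Tpm1-213 (0 to 35.6%) differ widely between libraries of the same group.

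Srf (ENSMUSG00000015605, chr17:46548329-46556175, minus strand) encodes the transcription factor that gives the pathway its name. Its levels were 51.7, 26.1, 55.2, 58.1 and 98.8 CPM in control replicates 1 to 5 and 41.3, 40.4, 24.5 and 25.3 CPM in 2-DG replicates 1 to 4. All 2-DG libraries were below 4 of the 5 controls, and control replicate 2 lay among them. The means were 58.0 ± 26.1 and 32.9 ± 9.24 CPM, and the log2 fold change of -0.82 (SE 0.35) was -1.01 without control replicate 2 and -0.55 without control replicate 5.

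Vcl (ENSMUSG00000021823, chr14:20929398-21033676, plus strand) encodes vinculin, which links integrin adhesions to actin. Control replicates 1 to 5 had 121, 64.6, 155, 180 and 189 CPM, and 2-DG replicates 1 to 4 had 106, 112, 116 and 185 CPM. The groups overlapped over nearly their whole range, with means of 142 ± 50.7 and 129.9 ± 37.2 CPM, which gave -0.13 on the log2 scale (SE 0.32), or -0.32 without control replicate 2 and -0.01 without control replicate 5. For Vcl, whose product sits with palladin at focal adhesions, the difference of the means was smaller than the SD of either group.

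The contractile genes came next. Tagln (ENSMUSG00000032085, chr9:45929619-45936058, minus strand) encodes transgelin, an early marker of smooth muscle differentiation. It had 10.4, 6.16, 14.4, 29.2 and 44.6 CPM in control replicates 1 to 5 and 2.38, 6.04, 14.4 and 11.5 CPM in 2-DG replicates 1 to 4. Control replicates 4 and 5 were above every 2-DG library and the other 3 were at or within its limits, with means of 21 ± 15.8 and 8.58 ± 5.40 CPM. The log2 fold change of Tagln was -1.28 (SE 0.64), and it was -0.81 without control replicate 5, -1.65 without 2-DG replicate 3 and -1.52 without control replicate 2.

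Acta2 (ENSMUSG00000035783, chr19:34241090-34255590, minus strand) encodes smooth muscle actin, and its coding sequence is close to those of the other actins, so its counts depend on how shared reads were divided. It had 3.27, 2.65, 2.75, 9.17 and 19.0 CPM in control replicates 1 to 5, and 0.170, 0.716, 19.5 and 4.78 CPM in 2-DG replicates 1 to 4. The lowest and the highest library were both 2-DG libraries. The log2 fold change was -0.22 (SE 1.07), smaller than its error, and the sign turned with the libraries used: it was 0.18 or 0.16 when 2-DG replicate 1 or 2 was left out and 0.49 without control replicate 5, but -1.93 without 2-DG replicate 3 and -0.43 without control replicate 2. In 2-DG replicate 3, Myh11, the smooth muscle myosin heavy chain, was at 19.1 CPM, against 0.763 to 7.06 CPM in the other 8 libraries, and its part in the Acta2 level of that library was not tested.

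Myl9 (ENSMUSG00000067818, chr2:156775420-156781658, plus strand), a regulatory light chain of smooth muscle and non-muscle myosin, divided the 2-DG libraries in the same way. Its levels were 3.11, 7.37, 4.89, 8.72 and 15.4 CPM in control replicates 1 to 5 and 0.764, 0.778, 9.75 and 8.12 CPM in 2-DG replicates 1 to 4. Replicates 1 and 2 of 2-DG were below every control library, and replicates 3 and 4 were within the control range. The log2 fold change of -0.69 (SE 0.79) was smaller than its error, and it was -1.28 without 2-DG replicate 3, -0.31 without control replicate 5 and -0.72 without control replicate 2.

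Tpm1 (ENSMUSG00000032366, chr9:67022590-67049406, minus strand), a tropomyosin that coats actin filaments in muscle and other cells through many splice forms, was the 1 member with a higher mean in 2-DG. It had 155, 103, 137, 185 and 196 CPM in control replicates 1 to 5 and 152, 148, 131 and 358 CPM in 2-DG replicates 1 to 4. Only 2-DG replicate 4 was above the control range, and the log2 fold change of 0.34 (SE 0.33) became -0.11 without it and 0.23 without control replicate 2. The excess was in particular transcripts. Tpm1-213 was at 123 CPM of the transcript table in 2-DG replicate 4 and at 39.6 CPM in control replicate 5, and at most 13.6 CPM in the other 7 libraries. Tpm1-211 was also highest in these same libraries, at 96.4 and 53.8 CPM, against 4.20 to 25.0 CPM elsewhere. Tpm1-209, which held the largest share of all Tpm1 counts (25.2%), was lowest in these libraries, at 32.3 and 23.8 CPM, against 41.7 to 88.1 CPM in the other 7. The 2 libraries with this transcript pattern also had the highest summed level of 10 endothelial markers, 3813 CPM in 2-DG replicate 4 and 2699 CPM in control replicate 5, against 445 to 1593 CPM elsewhere. The part of these cells in the Tpm1 values was not tested.

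Among the secreted matricellular genes, Ccn1 (ENSMUSG00000028195, chr3:145646976-145649981, minus strand), an integrin ligand induced rapidly by both SRF and YAP, had the most negative fold change. Its levels were 310.2, 39.4, 757, 602 and 952 CPM in control replicates 1 to 5 and 223, 201, 65.9 and 189 CPM in 2-DG replicates 1 to 4. Control replicate 2 was the lowest of all 9 libraries, and the other 4 controls were above every 2-DG library. The means were 532 ± 362 and 169.7 ± 70.6 CPM, and the log2 fold change of -1.65 (SE 0.72) was -1.95 without control replicate 2.

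Ccn2 (ENSMUSG00000019997, chr10:24595442-24598683, plus strand), the connective tissue growth factor gene, is often read together with Ccn1 as a YAP target. It had 11.7, 19.5, 20.9, 28.1 and 72.1 CPM in control replicates 1 to 5 and 9.85, 16.2, 27.5 and 26.7 CPM in 2-DG replicates 1 to 4. Apart from control replicate 5, the groups covered nearly the same range. The log2 fold change of -0.60 (SE 0.52) became -0.01 without that library and -0.73 without control replicate 2.

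Ankrd1 (ENSMUSG00000024803, chr19:36111961-36120099, minus strand) encodes a muscle ankyrin repeat protein found in the nucleus and the sarcomere, and is another common YAP target. It was close to the limit of detection, with 1.81, 0, 0.916, 1.16 and 2.04 CPM in control replicates 1 to 5 and 0.594, 0.156, 0.797 and 0.686 CPM in 2-DG replicates 1 to 4. A floor of 3 counts corresponded to 0.0556 to 0.255 CPM across the libraries, so the 0 in control replicate 2 does not show that the gene was silent. The other 4 controls were above all 2-DG libraries, and the log2 fold change was -1.10 (SE 0.84), or -1.40 without control replicate 2.

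The same libraries were high or low for many members. Control replicate 5 was the highest control for 10 of 10 members and the highest of all libraries for 8. It was also the highest of all 9 for the summed markers of Müller glia, at 7583 CPM against 1213 to 4638 CPM elsewhere. For pericytes and smooth muscle it was the highest only without Vtn, at 307 CPM against 108 to 261 CPM. With Vtn, control replicate 2 was highest, at 733 CPM, and control replicate 5 was at 577 CPM. Control replicate 5 was also the highest control for endothelial, astrocyte, fibroblast and pigment epithelium markers (2699, 143, 30.0 and 19.3 CPM), but not for skeletal muscle or rod markers. The part of these cells in the members' values was not tested. Control replicate 2 was the lowest control for 8 of 10. Among 2-DG libraries, replicate 1 was the lowest of all 9 libraries for 5 members. For 8 of the 9 members with a lower mean in 2-DG, leaving out control replicate 5 brought the fold change closest to 0 or turned it. Without control replicate 2, 9 of 10 members were still lower and the median log2 fold change was -0.87, and without control replicate 5 it was -0.43 with 8 of 10 lower.

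**Figure D3:**
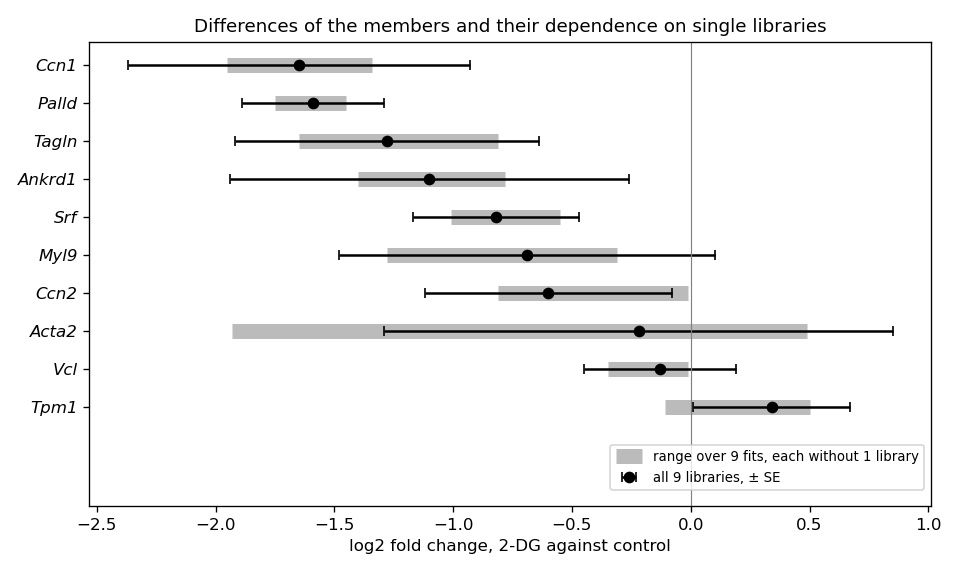
Log2 fold change of 2-DG against control for each of the 10 genes (horizontal axis); points and whiskers are the fit on all 9 libraries ± SE, and grey bands span the 9 fits that each leave out 1 library. The bands of Acta2 (-1.93 to 0.49) and Tpm1 (-0.11 to 0.50) cross 0, and that of Palld (-1.75 to -1.45) is narrow and far from it.

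Levels of different genes were compared per transcript length, in TPM, which divides counts by transcript length and scales to a common total, computed from the transcript table. In controls the mean TPM was 550.4 for Ccn1, 189.9 for Tpm1, 75.4 for Srf, 69.4 for Vcl, 29.4 for Tagln, 27.4 for Palld, 24.4 for Ccn2, 14.3 for Myl9, 8.15 for Acta2 and 1.32 for Ankrd1. Some neighbours in this order could not be separated: Tagln was above Palld in 2 of 5 control libraries, Srf above Vcl in 3 and Palld above Ccn2 in 3. The order below Ccn2 held in 5 of 5. The smooth muscle genes Acta2 and Myl9 were therefore low beside Ccn1 and Srf.

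The remaining pathway was described with 7 lists of 137 genes that hold no member, of which 132 were tested. None passed an adjusted p of 0.05 in edgeR's quasi-likelihood test (smallest adjusted p = 0.524), against 6 with DESeq2 and 16 with limma-voom, which called 1.35% and 5.81% of all genes. In edgeR 12 were lower and 4 higher at an unadjusted p under 0.05, and the corresponding shares of all genes were 4.83% and 2.42%. The median log2 fold change over the 132 genes was -0.05, with 72 lower (50.8% of all genes). These shares of all genes are the background of the counts given for each list. DESeq2 called Fhl2, Flnc, Ptk2, Thbs1, Egr2 and Egr3, and limma-voom called all of these and, among the genes named here, Mrtfb, Actc1, Cnn2, Ccdc80, Ajuba and Fosb.

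**Figure D4:**
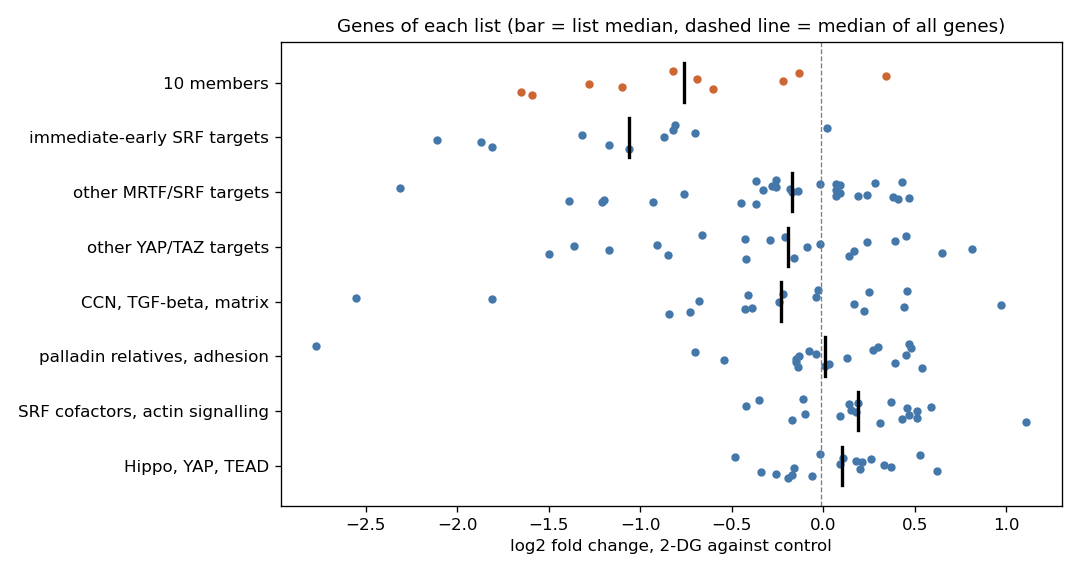
Log2 fold change of 2-DG against control (horizontal axis) for the 10 members and for each gene of 7 pathway lists; points are genes, vertical bars list medians, and the dashed line the median of all genes (-0.01). The immediate-early list (median -1.06) lies to the left, with 10 of 11 genes below 0, while the list of SRF cofactors and actin signalling (median 0.19) has 14 of 19 above 0.

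Upstream of SRF, 14 of 19 tested genes for its cofactors and for signalling to actin were higher, with a median log2 fold change of 0.19. Mrtfb, an MRTF cofactor of SRF, had 59.0, 20.9, 55.9, 49.5 and 40.2 CPM in control replicates 1 to 5 and 110.4, 72.1, 138 and 68.4 CPM in 2-DG replicates 1 to 4. Every 2-DG library was above every control, with a log2 fold change of 1.11 (SE 0.33) that did not pass correction (edgeR adjusted p = 0.526), or 0.93 without control replicate 2. Rock1, a kinase that promotes actomyosin contraction, also had groups that did not overlap, at 75.4 ± 14.1 against 108 ± 6.58 CPM and a log2 fold change of 0.51 (edgeR adjusted p = 0.618). The formin genes Diaph1 and Diaph2, whose products elongate actin filaments, had log2 fold changes of 0.46 and 0.59 with overlapping groups (edgeR adjusted p = 0.757 and 0.752). Srf and the cofactor gene Mrtfb thus stood on opposite sides of 0.

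Other actin, myosin and MRTF targets were lower for 17 of 29 tested, with a median of -0.17, and 2 of them, Fhl2 and Cnn2, were lower at an unadjusted p under 0.05, where the shares of all genes were 50.8% and 4.83%. Fhl2, a LIM-domain cofactor of SRF and other factors, had 18.1, 1.93, 24.3, 26.1 and 27.5 CPM in controls and 1.70, 3.36, 3.54 and 7.06 CPM in 2-DG. All controls other than replicate 2 were above all 2-DG libraries, and the log2 fold change was -2.31 (SE 0.67, edgeR adjusted p = 0.526), or -2.6 without that library (edgeR adjusted p = 0.0632). The calponin genes Cnn1 and Cnn2, which encode actin-binding regulators of contraction, had log2 fold changes of -1.39 and -1.20 (edgeR adjusted p = 0.739 and 0.689), and cardiac actin Actc1 had -1.21 (edgeR adjusted p = 0.709).

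Relatives of palladin and its partners at adhesions had a median of 0.01, with 10 of 19 higher and 9 lower. Within it, Flnc, a filamin that cross-links actin in muscle, had 148, 14.8, 191, 376 and 280 CPM in controls and 26.7, 38.4, 18.5 and 35.1 CPM in 2-DG. The 4 controls other than replicate 2 were all above the highest 2-DG library, with a log2 fold change of -2.77 (SE 0.70, edgeR adjusted p = 0.524), and -3.07 without control replicate 2 (edgeR adjusted p = 0.034). Ptk2, the focal adhesion kinase, lay the other way, at 82.2 ± 3.59 CPM in controls and 114 ± 10.5 CPM in 2-DG without overlap (log2 fold change 0.47, SE 0.16, edgeR adjusted p = 0.596). Lpp, a zyxin-family adhesion protein, had -0.70 and the actin monomer-binding Pfn1 0.48, the latter with 313 CPM in 2-DG replicate 4 and -0.21 without that library.

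For the Hippo kinases, YAP, TAZ and TEAD factors, 10 of 18 were higher, the median was 0.10 and none had an unadjusted p under 0.05. Amot, an angiomotin that binds YAP, had the smallest unadjusted p, at 9.02 ± 0.617 and 13.0 ± 3.50 CPM (log2 fold change 0.53, edgeR adjusted p = 0.709). Tead4 and Tead3, DNA-binding partners of YAP, had 0.62 and -0.34, and the Hippo kinase gene Stk4 had 0.33. Other YAP and TAZ targets were lower for 13 of 20, with a median of -0.19. Ccdc80, a matrix protein gene, was at 1.94 ± 0.630 and 0.760 ± 0.439 CPM (log2 fold change -1.36, edgeR adjusted p = 0.616), and the membrane repair gene Myof at 35.9 ± 6.68 and 49.0 ± 6.26 CPM (0.45, edgeR adjusted p = 0.689). Tissue factor F3 had -1.50 and the LIM-domain gene Ajuba -0.66 (edgeR adjusted p = 0.712 and 0.739).

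The list of other CCN genes, the TGF-beta pathway and matrix genes had 12 of 18 lower and a median of -0.23. Thbs1, which encodes the matricellular protein thrombospondin-1, had 169, 12.9, 344, 342 and 365 CPM in controls and 24.7, 18.4, 60.5 and 64.6 CPM in 2-DG. As with Ccn1, control replicate 2 was the lowest library and the other 4 controls were above all 2-DG libraries, with a log2 fold change of -2.55 (SE 0.79, edgeR adjusted p = 0.538), or -2.86 without control replicate 2 (edgeR adjusted p = 0.0660). Smad7, a TGF-beta feedback inhibitor, had -0.68 and the receptor Tgfbr2 0.97.

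The immediate-early targets of SRF that depend on ternary complex factors had the lowest median of the 7 lists, -1.06, with 10 of 11 lower (50.8% of all genes) and 6 lower at an unadjusted p under 0.05 (4.83% of all genes). The list was drawn up with earlier results of these data known. Egr3, a zinc finger factor, had 42.4, 6.16, 35.1, 40.1 and 43.3 CPM in controls and 12.4, 4.36, 7.82 and 6.61 CPM in 2-DG. Apart from control replicate 2, controls were all above 2-DG, and the log2 fold change was -2.11 (SE 0.53, edgeR adjusted p = 0.524), or -2.38 without that library (edgeR adjusted p = 0.0449). Egr2 and the AP-1 gene Fosb likewise had every control other than replicate 2 above every 2-DG library, at -1.87 and -1.81 (edgeR adjusted p = 0.524 and 0.546), or -2.14 and -2.09 without it, and the orphan nuclear receptor Nr4a1 was at -0.82 (edgeR adjusted p = 0.602). Fos and Egr1, named after their values were seen, made up the 6, at -1.06 and -1.17. Whether this list differed from the MRTF list was not tested.

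Markers of other cell types were set beside these values, as the summed CPM of each list in each library, compared by an exact two-sided permutation test whose smallest possible p is 0.00794. In 7 of 8 lists every marker had at least 1 count in some library, and in the fibroblast list Dpt was at 0 in every library. Markers too low to test numbered 5 in the skeletal muscle list, 2 in the pigment epithelium list and 1 each in the mural and fibroblast lists. Pericyte and vascular smooth muscle markers summed to 189 to 733 CPM in controls and 279 to 445 CPM in 2-DG (exact permutation p = 0.619, adjusted p = 0.770). Vtn, which photoreceptors also express, held 53.2% of that sum, and without it the means were 185 ± 79.9 and 191 ± 48.1 CPM (exact permutation p = 0.706). Of the 10 mural markers, 3 were lower in 2-DG (Rgs5, Vtn and Notch3), 6 were higher, and Higd1b was too low to test. Endothelial markers, led by Cdh5 and Pecam1, ranged from 445 to 2699 CPM in controls and from 700.2 to 3813 CPM in 2-DG (exact permutation p = 0.468). Müller glia markers, led by Glul and Rlbp1, ranged from 2116 to 7583 CPM and from 1213 to 4114 CPM (exact permutation p = 0.183, adjusted p = 0.732). Of these 10 markers, 6 were lower in 2-DG and 4 higher. Glul alone had means of 2332 and 960.3 CPM, within mean sums of 4102 and 2336 CPM.

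The sum of skeletal muscle markers was lower in 2-DG, at 9.81 to 56.0 CPM in controls and 4.06 to 14.9 CPM in 2-DG (exact permutation p = 0.0238, adjusted p = 0.190), which did not pass correction over the 8 lists. Of its 10 markers, 3 were lower, 2 were higher and 5 were too low to test. Myod1, a myogenic transcription factor at 26.1 ± 16.2 CPM in controls and 1.88 ± 1.90 CPM in 2-DG, held 66.3% of that sum. Without it the means of the sum were 9.11 ± 4.91 and 6.11 ± 3.09 CPM (exact permutation p = 0.294). Pigment epithelium markers, led by Ttr and Rdh5, were at 139 CPM in 2-DG replicate 3 and 4.33 to 30.4 CPM elsewhere, and astrocyte markers, led by Gfap and Aldh1l1, were highest there too, at 206 CPM against 43.2 to 143 CPM. Fibroblast markers, led by Dcn and Col1a2, summed to 10.2 to 30.0 and 12.8 to 41.0 CPM. None of these 4 lists passed an adjusted p of 0.05, nor did the others, and their part in the members' values was not tested.

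**Figure D5:**
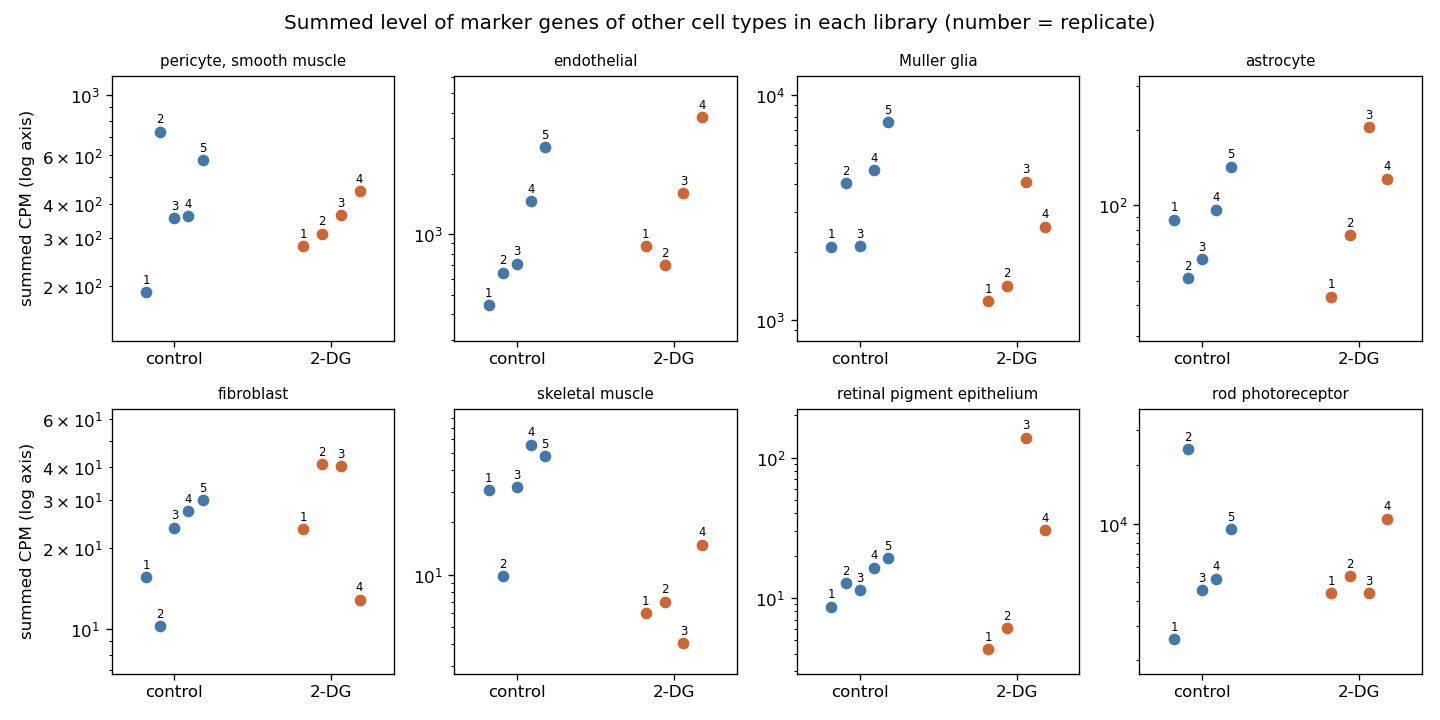
Summed CPM (log axis) of 8 marker lists in each control and 2-DG library, numbered by replicate. Control replicate 2 is apart for rod markers (24066 CPM), 2-DG replicate 4 and control replicate 5 are highest for endothelial markers (3813 and 2699 CPM), and 2-DG replicate 3 is highest for pigment epithelium (139 CPM) and astrocyte markers (206 CPM).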

How the data were processed

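A stranded kit was used on 4 ng of total RNA with 13 PCR cycles, and 101 bases were read from each end. The authors deposited estimated counts per gene and per transcript, which the submitters' processing notes tie to kallisto and GRCm38 (versions not given in the sources used here); how transcripts were combined into genes is not stated, and summed transcript values differ from the gene values. A scaled CPM table deposited by the authors, a signal listing 7 members, served only as an alternative. They also deposited a comparison table of fold changes, F and p-values, not used here. All samples are labelled biological replicates, and 0 columns were without a sample.

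Estimated counts were rounded, which moved a library total by at most 0.00377%, and tested with edgeR 4.0.16 in R 4.3.3 (filterByExpr, TMM, glmQLFit with legacy=TRUE and robust=FALSE, glmQLFTest, Benjamini-Hochberg over 21049 genes) with the group as the only term. DESeq2 1.42.0, limma 3.58.1 (voom), other scalings and filters, a replicate block and leaving out each library were alternatives. Marker sums were compared on log2(sum + 1), with adjustment over 8 lists. The scripts were tested on simulated data. Gene coordinates are from GENCODE M21 (GRCm38). Reads carry no molecular identifiers here, so the floor of 3 counts covers counting error only.

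The members, lists and tests were chosen with earlier results of these data known. Genes named are the 10 members, the 4 genes of each list with the smallest unadjusted p, markers at 0 in every library and the 2 most abundant of each marker list, and the 6 genes with mean CPM of at least 5 most like Palld by Pearson r of log2 CPM (prior count 2). Others are named only where their values were seen first, among them Fos, Egr1 and Myh11. Some listed genes that the rule names are not reported here, and 1 rod marker was left out of its list after the data had been seen.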

Additional observations from a re-analysis of the deposited data

Results flagged for a closer look

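In 4 cases 1 library lay far from the rest of its group by Dixon's test, which flags about 1 in 20 groups by chance. Ccn2 was at 72.1 CPM in control replicate 5, with the next control at 28.1 CPM. Tpm1 was at 358 CPM in 2-DG replicate 4, where the next 2-DG library had 152 CPM. In that same library Vcl was at 185 CPM, above the next value of 116 CPM, although 185 CPM is within the range of the controls. In 2-DG replicate 4 too, rod photoreceptor markers summed to 10609.5 CPM, with the next 2-DG library at 5394 CPM, and this sum was below that of control replicate 2.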

How the results depend on the processing

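The median log2 fold change of the 10 members stayed below 0 under every alternative run, from -1.31 to -0.43 when 1 library was left out, and at -1.50 with voom. The set was chosen on this contrast in these libraries, so refits of them are no independent support for its direction. The fold changes of Palld, Ccn1, Tagln, Ankrd1, Srf, Myl9 and Ccn2 kept their sign under every alternative, though voom moved Myl9 from -0.69 to -2.53 and Tagln from -1.28 to -2.20. Genes past an adjusted p of 0.05 numbered 0 in the main test but 284 with DESeq2's Wald test and 1222 with limma-voom and sample weights, and 0 to 16 when 1 library was left out (16 without control replicate 2, 2 without 2-DG replicate 4). At an unadjusted p, 1526 genes became 5474 with voom, 2642 with no filter and 921 to 2721 when 1 library was left out (fewest without control replicate 4, most without 2-DG replicate 4). Of the 132 other pathway genes, 6 passed with DESeq2, 16 with voom and 0 to 2 when 1 library was left out (2 without control replicate 2), and the 16 at an unadjusted p became 51 with voom and 11 to 29 when 1 library was left out (29 without control replicate 2). The cause of these differences between tools was not tested.

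Signs turned as follows. Acta2, at -0.22, was at -3.09 with voom and -1.0 with the replicate block, ranged from -1.93 (without 2-DG replicate 3) to 0.49 (without control replicate 5) over fits without 1 library, and was at 0.18 and 0.16 with 2-DG replicate 1 or 2 left out. Tpm1 was at -0.08 with voom and ranged from -0.11 (without 2-DG replicate 4) to 0.50, Pfn1 was at -0.05 with voom and ranged from -0.21 (without 2-DG replicate 4) to 0.75, and Tead3 at 0.06 with voom. The log2 difference of mural marker sums, -0.22, became 0.26 as a mean of log2 values and 0.12 without Vtn, and ranged from -0.49 to 0.00 over the fits without 1 library. That of astrocyte markers, 0.23, became -0.07 as a mean of log2 values and ranged from -0.14 (without 2-DG replicate 3) to 0.61. Pigment epithelium markers, at 0.51, ranged from -0.43 (without 2-DG replicate 3) to 1.15, and rod markers, at -0.22, from -0.57 to 0.24 (without control replicate 2). The skeletal muscle sum, -1.94, became -0.37 as a mean of log2 values (exact permutation p = 0.0635) and -0.47 without Myod1 (exact permutation p = 0.294). It ranged from -2.33 to -1.71 without 1 library, with p between 0.0179 and 0.0714. Leaving out Vtn or Myod1 was chosen after seeing the data.

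Same-numbered control and 2-DG libraries did not deviate together in every pair (correlations of 0.451, -0.155, 0.102 and 0.205 for replicates 1 to 4, while 2-DG replicate 4 correlated best with control replicate 5, at 0.717), so the numbers were not taken to pair the samples. With the replicate number as a block, which drops control replicate 5 from the comparison, 0 genes passed an adjusted p and 1351 had an unadjusted p under 0.05, with Palld the 1 member among them, and Palld was at -1.39, Ccn1 at -0.93, Ccn2 at -0.05, Ankrd1 at -0.42, Srf at -0.53, Tagln at -0.85 and Vcl at 0.05. Low counts limit Ankrd1, and the number of libraries limits all members.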

Other observations

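Over the 9 libraries, the genes whose log2 CPM followed Palld most closely, among 12943 genes with a mean of at least 5 CPM, were Slc5a5 (Pearson r 0.982), A030001D20Rik (0.978), Tspan5 (0.970), Trim30a (0.963), Myo18b (0.959) and Sphk1 (0.954). The libraries span both groups, so r holds the group difference as well as the spread within groups, and it is given as a description only. By Spearman rank correlation, or without control replicate 2, 3 of these 6 remained among the 6 closest. Slc5a5, the sodium iodide symporter, was at 21.3, 9.95, 28, 45.1 and 36.2 CPM in controls and 5.09, 5.10, 6.50 and 7.72 CPM in 2-DG, without overlap. Myo18b, an unconventional myosin of muscle sarcomeres, was at 27.2 ± 19.9 and 2.86 ± 2.01 CPM, with control replicate 2 at 5.44 CPM within the 2-DG range. Sphk1, which makes the lipid signal sphingosine 1-phosphate, was at 40.4 ± 21.3 and 10.9 ± 3.20 CPM. Trim30a was at 41.0 ± 18.5 and 11.4 ± 2.53 CPM, the tetraspanin Tspan5 at 86.0 ± 12.8 and 58.5 ± 7.02 CPM, and the antisense RNA gene A030001D20Rik at 10.2 ± 2.39 and 3.21 ± 0.675 CPM.

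Among the members themselves, Tagln was most like Palld (r 0.804, rank 161 of 12943), followed by Srf (0.760, rank 236), Ccn1 (0.663, rank 483), Acta2 (0.590), Myl9 (0.580), Ccn2 (0.512) and Vcl (0.472). Tpm1 was unlike it (0.013, rank 4765), and Ankrd1 was below the level needed for ranking.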
